A study of Mus musculus with 132 samples.

Results

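The Notch pathway genes described here are the receptors Notch1, Notch2, Notch3 and Notch4, the ligands Dll1, Dll4, Jag1 and Jag2 and the targets Hey1 and Hey2. They were chosen by name, as 10 of the 25146 rows of a table of read counts, and were followed across 23 poly(A)-minus RNA-seq libraries of a mouse ESC (mESC) differentiation model of blood development. Poly(A)-minus RNA-seq removes polyadenylated RNA and so keeps much of the nascent transcripts, and the reads of a gene were summed over its exons and introns alike. The study deleted the CTCF site next to either promoter of Runx1, a transcription factor gene needed for the first blood cells, and asked how chromatin structure and gene expression respond.

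Notch receptors are cell-surface proteins that are cut when a neighbouring cell presents a Delta-like (Dll) or Jagged (Jag) ligand. The released intracellular part joins the DNA-binding protein Rbpj and switches on targets such as the Hes and Hey genes, which encode transcriptional repressors. In the embryo the pathway is known for setting arterial identity in endothelium and for its part in forming the first blood stem cells from arterial endothelium, where Dll4 and Notch4 mark endothelial cells.

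All libraries came from the mESC line E14-TG2a, of strain 129/Ola. The wild-type groups were undifferentiated mESCs at day 0 (2 libraries), Flk1+ mesoderm sorted at day 4 (3 libraries, from clone B9.3, clone C6.1 and clone C8.1) and CD41+ hematopoietic progenitor cells (HPCs) sorted at day 7 (4 libraries of the same clones, with B9.3 and B9.3-2 from a single clone). P1-CTCF-KO cells, which lack the CTCF site near the distal P1 promoter of Runx1, gave 3 mesoderm and 3 HPC libraries from the clones E7.1, E7.2 and E9.1. P2-CTCF-KO cells, which lack the site near the proximal P2 promoter, gave 3 mesoderm libraries (clones D10.1, D2.1 and E9.1, the last not the P1-CTCF-KO clone of that name) and 5 HPC libraries (D10.1 and D2.1 with a repeat each, D10.1-2 and D2.1-2, and E9.1). Mesoderm formed in embryoid bodies in a serum-free medium with BMP4, to which bFGF and Activin-A were added before the sort at day 4, and SCF and VEGF were given only to the sorted cells that went on to HPCs. The labels call both undifferentiated libraries technical replicates, so they stand for a single culture. The labels give 1 extraction protocol with ribosomal RNA depletion for all samples, whereas the study's methods name that depletion for undifferentiated mESCs and not for mesoderm or HPCs. Every difference from undifferentiated mESCs is therefore also one between library preparations, and the 2 cannot be told apart.

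Library totals ran from 7805102 to 24406998 counts, of which ribosomal and multi-locus entries took 68.1% to 91%. The other genes shared 4858660 to 7748567 counts per library in undifferentiated mESCs, 1897917 to 2288976 in mesoderm and 878966 to 1584401 in HPCs, so a gene with a handful of reads in mesoderm could go unseen in HPCs. The groups held the markers of their labels, with 44.5 to 48.4 summed CPM over 6 pluripotency genes in undifferentiated mESCs against at most 8.54 later. CPM here are counts scaled to library size, on 1 TMM scale over all 23 libraries. The summed level of 9 hematopoietic progenitor genes was 76.8 to 258 CPM in the 12 HPC libraries against 4.13 to 28.1 in the 9 mesoderm libraries. In bulk libraries, fewer cells that use a gene and less RNA per cell cannot be told apart.

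A set of 12 endothelial genes (Cdh5, Pecam1, Tek, Tie1, Emcn, Flt1, Erg, Sox7, Sox17, Sox18, Eng and Esam) set 3 libraries apart from the rest of their groups. Wild-type mesoderm B9.3 summed to 115 CPM over them, against 7.41 in C6.1 and 19.7 in C8.1. P1-CTCF-KO mesoderm E9.1 summed to 75.5 CPM, against 35.2 in E7.1 and 10.6 in E7.2. Over 6 arterial genes both libraries were the lowest of their groups. Wild-type B9.3 had 43.6 CPM against 48.2 and 55.5, and P1-CTCF-KO E9.1 had 39.5 against 54.6 and 52.0. The arterial sum did not follow the endothelial sum across groups, at 32.3 to 49.2 CPM in P2-CTCF-KO mesoderm. Efnb2, an arterial gene, had 7.09 CPM in B9.3 against 7.41 in C6.1 and 5.29 in C8.1, so it was not lowest there. In P1-CTCF-KO E9.1 Efnb2 was the lowest of its group, at 4.79 CPM. Over 3 venous genes both libraries were the highest of their groups, at 54.5 CPM against 17.5 and 25.1, and 45.0 against 32.2 and 17.2. Among P2-CTCF-KO HPCs, D2.1 summed to 91.8 CPM, against 13.9 to 52.6 in the other 4 libraries, and it also had the least erythroid signal of all HPC libraries (25.9 CPM over 5 genes). D2.1 stood apart in other lists too. Its sums were 37.1 CPM over 6 arterial genes (2.4 to 8.15 in the rest of its group), 25.9 over 3 venous genes (2.61 to 3.84), 20.2 over the 7 mesoderm genes (4.01 to 10.6), 3.91 over 5 neural genes (at most 0.528) and 2.02 over the pluripotency genes (at most 0.435). The 3 P2-CTCF-KO mesoderm libraries lay below all other mesoderm libraries, at 1.97, 3.55 and 3.93 CPM, with Emcn and Erg at 0 counts in each. Emcn was also at 0 counts in wild-type mesoderm C6.1 and C8.1 and in P1-CTCF-KO mesoderm E7.2. The part of these values in the results that follow was not tested.

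**Figure D1:**
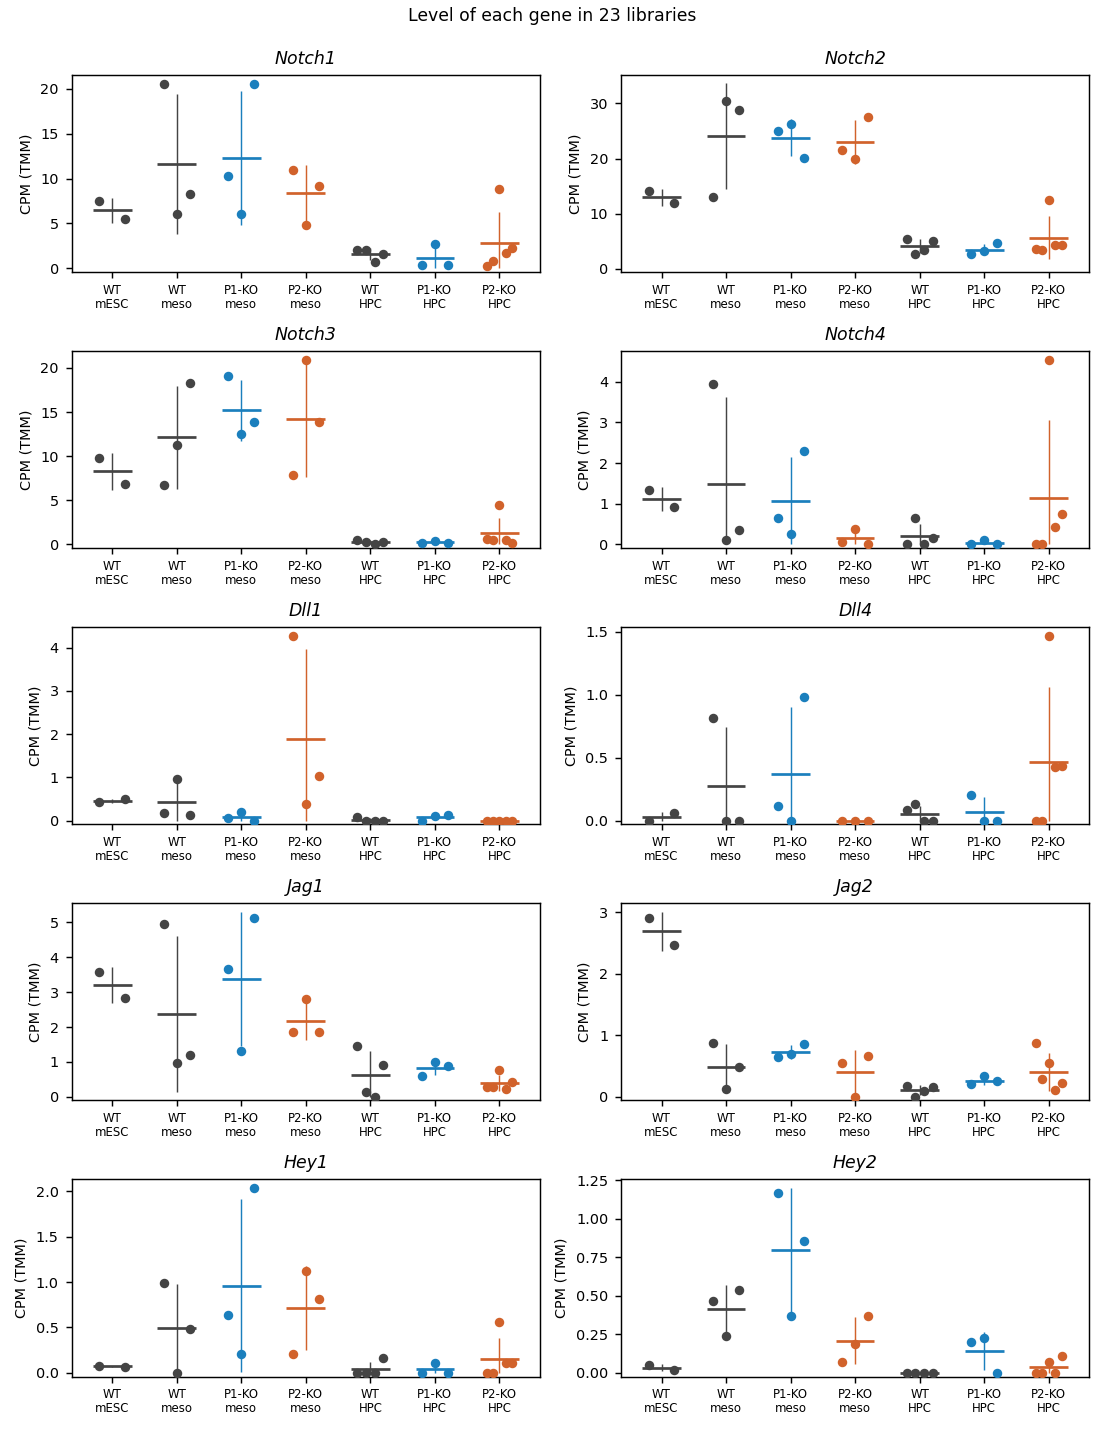
Level of each of the 10 genes in CPM on 1 TMM scale, by group of libraries (WT, wild type, P1-KO and P2-KO, the CTCF site deletions, meso, mesoderm). Points are libraries, horizontal lines group means and vertical lines 1 SD, cut off at 0. The receptors Notch1, Notch2 and Notch3 sit high in mesoderm and low in HPCs of all 3 genotypes, and 1 P2-CTCF-KO HPC library, D2.1, lies above the rest of its group for each of the 4 receptors.

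Compared per kilobase of the counted span, the receptors led in wild-type mesoderm. Notch3 (0.263 ± 0.13 CPM per kb, SD, n = 3), Notch1 (0.253 ± 0.17) and Notch2 (0.176 ± 0.07) came first, and these 3 did not differ beyond their spread. Hey1 followed at 0.133 ± 0.13 CPM per kb. The other 6 genes lay from 0.0235 (Jag2) to 0.0676 (Jag1) CPM per kb and overlapped each other within their SD. In wild-type HPCs the order per kilobase was led by Notch1 (0.0347 ± 0.014, n = 4) and Notch2 (0.0304 ± 0.0095), while Notch3 had dropped to 0.00599 ± 0.0046. The means of Jag1 (0.0179 ± 0.0196), Hey1 (0.0113 ± 0.0226, from 2 reads) and Notch4 (0.00831 ± 0.0125) lay above that of Notch3. They overlapped it within their SD, so these genes are not ranked. In undifferentiated mESCs, Notch3 (0.18 CPM per kb), Notch1 (0.14) and Jag2 (0.129) led, as means of the 2 technical replicates of 1 culture with no biological spread. Jag2 thus had the third mean there and was among the 6 lower genes in mesoderm, which are not ranked.

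Some counts could be shared with other entries of the table, whose use of strand in counting is not stated. Notch1 overlaps 0610009E02Rik on the other strand over 1481 bp (100 counts in all, against 3702 for Notch1). Dll4 overlaps Gm14207 over 415 bp (7 counts, against 69). Notch3, Notch4 and Dll1 lie inside the span of an entry of several loci, Sult1c1, with 400067 counts.

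The question of the stage comparisons is which members change as mesoderm gives rise to HPCs. Of the 10 genes, 8 passed the filter on low counts among the 9 wild-type libraries, and Dll4 and Hey2 did not. Between wild-type mesoderm and HPCs, Notch1, Notch2, Notch3, Jag2 and Hey1 fell, 5 of the 8 genes tested (edgeR's quasi-likelihood test, called where the Benjamini-Hochberg adjusted p was under 0.05 and the log2 fold change beyond 1 in size), and none rose. Over all 12899 genes tested, 12.5% were called lower. The median log2 fold change was -3.04 for the 8 genes and -0.01 for all genes, but a gene that passes the filter through its mesoderm level alone had to be lower in HPCs, so these counts describe the genes and support nothing further. Treating the clone as a block, since mesoderm and HPCs of a name came from the same clone, called 8 of 8 genes, with Notch4, Dll1 and Jag1 added. With the libraries of a clone summed, only Notch1, Notch2 and Notch3 were called, and Jag2 and Hey1 were not (adjusted p = 0.06 and 0.096). The shares of all genes called by the block and summed fits are not given here, so their counts only describe these genes.

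Notch1, on chromosome 2 (26313421 to 26359342, minus strand, mm9), is the receptor that arterial and hemogenic endothelium require. Its level was 20.5, 6.07 and 8.30 CPM in wild-type mesoderm B9.3, C6.1 and C8.1, against 2.06, 2.05, 0.690 and 1.58 CPM in wild-type HPCs B9.3, B9.3-2, C6.1 and C8.1. The groups did not overlap, and the highest mesoderm value was that of the library with most endothelial signal. The log2 fold change was -2.89 ± 0.44 (SE, adjusted p = 0.00064) with all libraries and -2.19 ± 0.34 (adjusted p = 0.00053) without B9.3 mesoderm. P1-CTCF-KO mesoderm repeated the picture, with 20.5 CPM in E9.1 against 10.3 in E7.1 and 6.01 in E7.2, and P1-CTCF-KO HPCs had 0.405, 2.68 and 0.380 CPM (log2 fold change -3.30 ± 0.93, adjusted p = 0.0091).

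In P2-CTCF-KO cells Notch1 had 10.95, 4.88 and 9.18 CPM in mesoderm D10.1, D2.1 and E9.1. In HPCs it had 0.291, 0.769, 8.86, 1.69 and 2.28 CPM in D10.1, D10.1-2, D2.1, D2.1-2 and E9.1, so a single HPC library reached into the mesoderm range. The step from mesoderm to HPC did not pass the test (log2 fold change -1.55 ± 0.70, adjusted p = 0.09), but did so without HPC D2.1 (-2.78 ± 0.62, adjusted p = 0.0014). D2.1-2 is the same clone, at 1.69 CPM of Notch1 and 13.9 CPM over the endothelial genes, the least of the group.

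Notch2 (chromosome 3, 97817460 to 97954290, plus strand) is a broadly used receptor and had the most counts of the 10 genes. It had 13.02, 30.4 and 28.8 CPM in wild-type mesoderm B9.3, C6.1 and C8.1, against 2.69 to 5.41 CPM in wild-type HPCs. Here B9.3 was the lowest of the mesoderm libraries, the reverse of Notch1. The fall was 5.71-fold (log2 fold change -2.51 ± 0.32, adjusted p = 0.0002), 6.82-fold in P1-CTCF-KO cells (-2.77 ± 0.46, adjusted p = 0.00018) and 4.08-fold in P2-CTCF-KO cells (-2.03 ± 0.37, adjusted p = 0.00035). Again P2-CTCF-KO HPC D2.1, at 12.5 CPM, lay above the other 4 libraries of its group, at 3.36 to 4.35 CPM. That library was highest in the endothelial (91.8 CPM), arterial, venous and mesoderm sums alike.

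Notch3 (chromosome 17, 32257764 to 32303835, minus strand), best known as the receptor of vascular smooth muscle and pericytes, fell the most of the 8 members tested in wild-type cells. It had 6.74, 11.3 and 18.3 CPM in wild-type mesoderm B9.3, C6.1 and C8.1, but 0.515, 0.256, 0 and 0.333 CPM in wild-type HPCs B9.3, B9.3-2, C6.1 and C8.1. Like Notch2, it was lowest in B9.3. The log2 fold change was -5.39 ± 0.53 in wild-type cells (42.0-fold, adjusted p = 3.7e-05), -5.76 ± 0.97 in P1-CTCF-KO cells (54.2-fold, adjusted p = 0.00019) and -3.38 ± 0.61 in P2-CTCF-KO cells (10.4-fold, adjusted p = 0.00033). The last value moved to -4.95 ± 0.47 without HPC D2.1, which held 64 of the Notch3 reads against 2 to 6 in the other 4 P2-CTCF-KO HPC libraries. HPC D2.1 had an endothelial sum of 91.8 CPM. Among mesoderm libraries the one with the highest endothelial sum, wild-type B9.3 at 115 CPM, had the lowest Notch3 and Notch2, and the one with the lowest sum, P2-CTCF-KO D2.1 at 1.97 CPM, had the highest Notch3 (20.9 CPM).

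Notch4 (chromosome 17, 34701239 to 34725488, plus strand) is the receptor most restricted to endothelium. In wild-type mesoderm it had 68 counts (3.95 CPM) in B9.3 and 1 and 6 counts (0.121 and 0.361 CPM) in C6.1 and C8.1. In wild-type HPCs B9.3, B9.3-2, C6.1 and C8.1 it had 0, 5, 0 and 2 counts. The groups overlapped. On the log2 scale HPCs differed from mesoderm by -3.20 ± 1.15 (adjusted p = 0.058) with B9.3 mesoderm and by -0.69 ± 1.09 (adjusted p = 0.7) without it, while leaving out C6.1 mesoderm, C8.1 mesoderm or HPC B9.3-2 instead brought it past the test (adjusted p = 0.029 to 0.039).

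The same libraries led for Notch4 in the other genotypes. P1-CTCF-KO mesoderm had 35 counts (2.298 CPM) in E9.1 against 11 in E7.1 and 6 in E7.2, and P1-CTCF-KO HPCs had 0, 1 and 0. P2-CTCF-KO mesoderm had 1, 4 and 0 counts, while P2-CTCF-KO HPC D2.1 alone had 65 counts (4.53 CPM) against 0 to 7 in the other 4 libraries. Notch4 was thus the only receptor above its mesoderm level in P2-CTCF-KO HPCs, by 3.10 ± 1.57 on the log2 scale, which did not pass the test (adjusted p = 0.13) and was 1.02 ± 1.59 without D2.1 (adjusted p = 0.63).

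**Figure D2:**
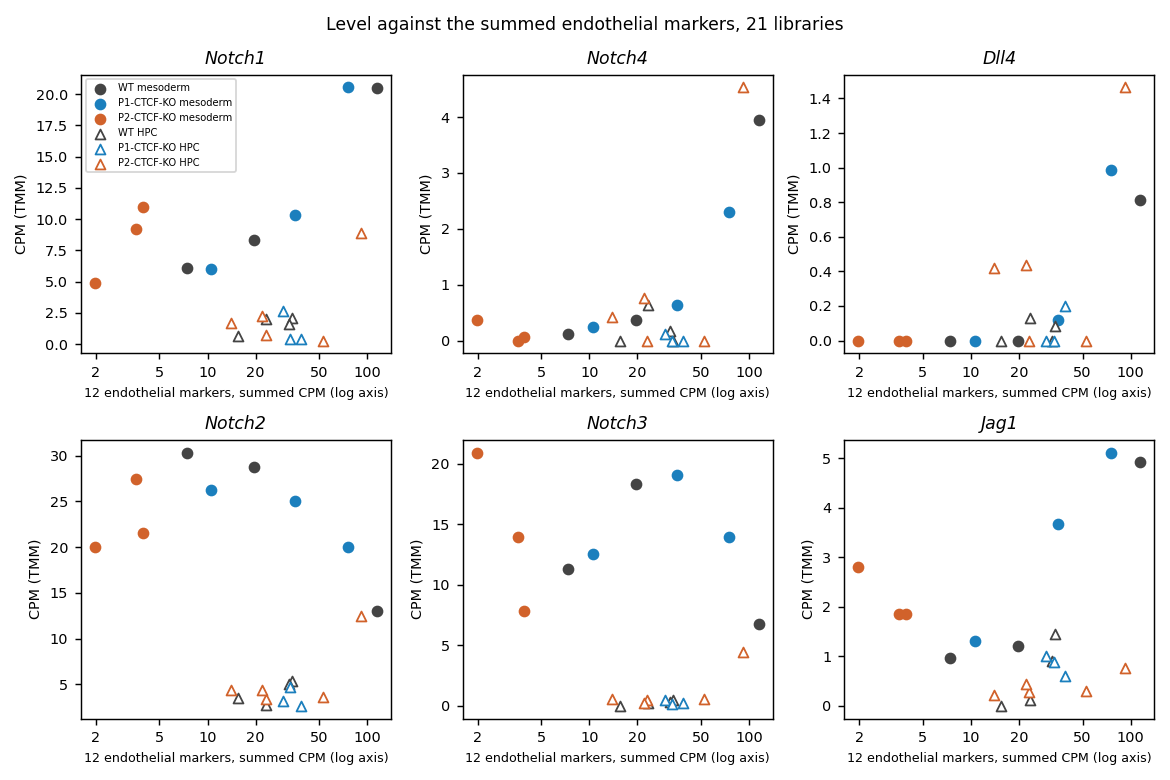
Level of 6 genes (CPM, vertical axes) against the summed level of 12 endothelial markers (CPM, horizontal log axes) in 21 libraries, with filled circles for mesoderm and open triangles for HPCs, coloured by genotype. Notch1, Notch4, Dll4 and Jag1 are highest among mesoderm libraries in the 2 with most endothelial signal, at 115 and 75.5 summed CPM, where Notch2 is at 13.02 and 20.0 CPM.

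Among the ligands, Dll4 (chromosome 2, 119151519 to 119161402, plus strand), the ligand of arterial endothelium, was low throughout and had most of its reads in the endothelial-rich libraries. Of these, wild-type mesoderm B9.3 and P1-CTCF-KO mesoderm E9.1 were the lowest of their groups over the arterial genes (43.6 and 39.5 CPM). That sum did not follow endothelial signal across groups, since P2-CTCF-KO mesoderm had 32.3 to 49.2 CPM. Wild-type mesoderm B9.3, C6.1 and C8.1 had 14, 0 and 0 counts, and P1-CTCF-KO mesoderm E7.1, E7.2 and E9.1 had 2, 0 and 15. P2-CTCF-KO mesoderm had 0 counts in all 3 libraries, whose endothelial sums were 1.97 to 3.93 CPM against 7.41 to 115 in the other mesoderm libraries. Over the group of 3, wild-type mesoderm was thus at least 4.29-fold above the limit that 0 counts allow in P2-CTCF-KO mesoderm (3 counts over the group), and P1-CTCF-KO mesoderm at least 3.87-fold above it. Each of these bounds rests on a single library, since the rest of both groups held 0 to 2 counts. They and the other intervals for low counts cover counting error only.

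In HPCs Dll4 had 1, 1, 0 and 0 counts in the wild-type libraries and 1, 0 and 0 in the P1-CTCF-KO libraries. P2-CTCF-KO HPCs D10.1, D10.1-2, D2.1, D2.1-2 and E9.1 had 0, 0, 21, 4 and 4 counts. The ratio of P2-CTCF-KO to wild-type HPCs was 11.2 (95% exact interval of the counts 2.84 to 97.1). D2.1 held 21 of the 29 P2-CTCF-KO reads, and without it the ratio was 4.22 (0.843 to 40.8). Dll4 did not pass the filter in any comparison, so no p-value is given for it.

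The open chromatin at Dll4 is shown because it holds a start site peak that both stages share and a second peak that overlaps CTCF. The mesoderm ATAC-seq peak upstream of its start (chr2:119151322-119151509, mm9, plus strand) is printed first, with the Hey-type site CACGCG in capitals. The second (chr2:119163669-119163941), beyond the 3' end of Dll4 and before Chac1, has the CTCF core CCCTC or its complement GAGGG in capitals.
Dll4 upstream peak: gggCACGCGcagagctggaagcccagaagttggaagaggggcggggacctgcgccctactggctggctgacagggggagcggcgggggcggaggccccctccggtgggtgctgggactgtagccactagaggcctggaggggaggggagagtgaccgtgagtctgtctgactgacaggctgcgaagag
Dll4 downstream peak: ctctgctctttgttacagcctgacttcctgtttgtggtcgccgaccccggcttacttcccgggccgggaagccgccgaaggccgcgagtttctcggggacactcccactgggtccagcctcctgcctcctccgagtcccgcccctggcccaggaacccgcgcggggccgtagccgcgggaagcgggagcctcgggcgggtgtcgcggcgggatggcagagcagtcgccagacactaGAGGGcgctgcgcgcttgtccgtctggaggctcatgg

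Windows of 188 bp centred on all 76766 mesoderm peaks held CACGCG on either strand in 3.42%, and windows of 273 bp held CCCTC in 65.6%. The upstream peak was 69.1% G and C. It overlapped an HPC peak, whereas the downstream peak overlapped a CTCF peak of 416B cells, a hematopoietic progenitor line, and no HPC peak. Such matches of letters are descriptions and not evidence of binding.

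Dll1 (chromosome 17, 15504317 to 15512787, minus strand), a ligand of the presomitic mesoderm, had its highest value in P2-CTCF-KO mesoderm. D10.1, D2.1 and E9.1 had 62, 4 and 14 counts (4.27, 0.375 and 1.04 CPM), against 3, 8 and 2 in wild-type mesoderm B9.3, C6.1 and C8.1, while P1-CTCF-KO mesoderm had 1, 5 and 0. The P2-CTCF-KO and wild-type libraries overlapped, and D10.1 carried most of the reads. In P2-CTCF-KO HPCs Dll1 had 0 counts in each of the 5 libraries, at least 37.0-fold below mesoderm of that genotype and at least 13.3-fold without D10.1. In wild-type cells the fall to HPCs did not pass the test with all libraries (log2 fold change -3.64 ± 1.28, adjusted p = 0.053), with 1 count in all 4 HPC libraries, and did so without B9.3 or C8.1 mesoderm (adjusted p = 0.041 and 0.037).

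P2-CTCF-KO mesoderm also stood apart as a group in its markers. The 7 mesoderm genes (Kdr, Pdgfra, T, Mesp1, Eomes, Mixl1 and Hand1) summed to 73.8 to 110 CPM there, above 33.2 to 58.3 in the other mesoderm libraries. Within the group the order was the reverse of that of Dll1, with the lowest sum in D10.1 (73.8), then E9.1 (84.7) and D2.1 (110). T, the primitive streak gene, had 86 counts in D10.1, the library with most Dll1, and 40 and 48 in D2.1 and E9.1. Their part in the Dll1 level was not tested.

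Jag1 (chromosome 2, 136907186 to 136942256, minus strand), a ligand of endothelium and many epithelia, followed Notch1 and Notch4 among wild-type mesoderm libraries. It had 4.94, 0.971 and 1.20 CPM in B9.3, C6.1 and C8.1, against 1.46, 0.128, 0 and 0.917 CPM in wild-type HPCs B9.3, B9.3-2, C6.1 and C8.1. The groups overlapped, and the fold change to HPCs did not pass the test (log2 -1.88 ± 0.76, adjusted p = 0.091, and -0.71 ± 0.73, adjusted p = 0.53, without B9.3 mesoderm). It passed without HPC B9.3, which held 17 of the 29 HPC reads (-2.65 ± 0.83, adjusted p = 0.032). That library also had 28.3 CPM over 6 arterial genes (1.97 to 3.71 in the other 3), 13.997 over 7 cardiac and smooth muscle genes (1.02 to 1.58) and 11.3 over 3 venous genes (1.08 to 4.48), and their part in its Jag1 level was not tested. Jag1 fell in P2-CTCF-KO cells (-2.36 ± 0.70, adjusted p = 0.012), where mesoderm had 1.86, 2.81 and 1.85 CPM and HPCs 0.211 to 0.767 CPM with no overlap. In P1-CTCF-KO cells it lay at the threshold without passing it (-1.96 ± 0.77, adjusted p = 0.0501, and 0.026 without E7.2 mesoderm). The HPC ATAC-seq peak before its start (chr2:136942492-136942559, minus strand) is shown because a mesoderm peak overlaps it, with the complement of CACGCG in capitals.
Jag1 upstream peak: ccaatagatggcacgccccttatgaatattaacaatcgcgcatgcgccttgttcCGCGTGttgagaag

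Windows of 68 bp on all 29037 HPC peaks held CACGCG in 1.62%. The Jag1 peak was 50% G and C.

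Jag2 (chromosome 12, 114146800 to 114167706, minus strand) was highest in undifferentiated mESCs. It had 2.91 and 2.47 CPM in undifferentiated mESCs, 0.872, 0.121 and 0.481 in wild-type mesoderm B9.3, C6.1 and C8.1, then 0 to 0.172 in wild-type HPCs. No wild-type mesoderm library reached the undifferentiated level. The log2 fold change was -2.302 ± 0.46 to mesoderm (adjusted p = 0.0042) and -2.17 ± 0.70 from mesoderm to HPCs (adjusted p = 0.037). The second of these steps rests on 24 reads in mesoderm against 5 in HPCs, and it failed the test when B9.3 or C8.1 mesoderm or B9.3-2, C6.1 or C8.1 HPCs were left out (adjusted p = 0.061 to 0.18). The first failed it without the first undifferentiated library (adjusted p = 0.066).

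The targets Hey1 (chromosome 3, 8663358 to 8667038, minus strand) and Hey2 (chromosome 10, 30552164 to 30562589, minus strand) encode repressors that carry the Notch signal in vessels and heart. Both were low. Hey1 had 14 and 7 counts in undifferentiated mESCs (0.0764 and 0.0686 CPM), 17, 0 and 8 in wild-type mesoderm B9.3, C6.1 and C8.1 (CPM of 0.988, 0 and 0.481) and 0, 0, 0 and 2 in wild-type HPCs. It rose to mesoderm (log2 fold change 2.89 ± 0.77, adjusted p = 0.017, and 0.093 in DESeq2) and fell to HPCs (-3.48 ± 1.11, adjusted p = 0.037, and 0.06 in DESeq2), and without B9.3 mesoderm it no longer passed the filter on low counts. Without HPC B9.3, B9.3-2 or C6.1 the fall did not pass the test (adjusted p = 0.073 to 0.089), nor did the rise without either undifferentiated library (0.2 and 0.21).

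Unlike Dll4, Hey1 was detected in P2-CTCF-KO mesoderm, with 3, 12 and 11 counts in D10.1, D2.1 and E9.1. P1-CTCF-KO mesoderm E7.1, E7.2 and E9.1 had 11, 5 and 31 counts. In P2-CTCF-KO HPCs, 8 of the 10 reads of Hey1 were in D2.1. The ratio of wild-type mesoderm to wild-type HPCs, 12.4 by summed counts, had a 95% interval of 3.08 to 108. Without mesoderm B9.3, which held 17 of the 25 reads, the ratio was 6.69 (1.34 to 64.7).

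Hey2 had 8, 2 and 9 counts in wild-type mesoderm B9.3, C6.1 and C8.1, but 0 in each of the 4 wild-type HPC libraries, at least 6.26-fold lower in HPCs. P1-CTCF-KO mesoderm held the most, at 20, 9 and 13 counts (0.797 ± 0.401 CPM, SD, n = 3), against 1, 2 and 5 counts in P2-CTCF-KO mesoderm (0.209 ± 0.152 CPM). The CPM values of both groups, 0.370 to 1.17 and 0.0689 to 0.370, met at their edges. Unlike Notch1 and Dll4, Hey2 did not stand out in the endothelial-rich wild-type library, B9.3. Its 8 counts there against 9 in C8.1 are too few to rank these 2 libraries. Hey2 did not pass the filter in any comparison.

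For each Hey gene, 1 peak of open chromatin before its start is shown for the letters TGGGAA, the core to which Rbpj binds, read on both strands. The Hey1 peak is that of mesoderm (chr3:8667105-8667284, minus strand) and holds CACGCG but not TGGGAA. Other mesoderm peaks of Hey1 (chr3:8667358-8667608 upstream and chr3:8666800-8666868 in an exon) were not searched for these letters. TGGGAA is therefore not shown to be absent from the open chromatin of Hey1. The Hey2 peak is that of HPCs (chr10:30562660-30562861, minus strand), overlaps a longer mesoderm peak and holds TTCCCA, the complement of TGGGAA. Capitals mark either motif.
Hey1 upstream peak: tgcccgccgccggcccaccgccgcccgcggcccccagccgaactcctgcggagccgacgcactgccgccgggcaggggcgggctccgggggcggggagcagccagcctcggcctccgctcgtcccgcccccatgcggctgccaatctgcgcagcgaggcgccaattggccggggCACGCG
Hey2 upstream peak: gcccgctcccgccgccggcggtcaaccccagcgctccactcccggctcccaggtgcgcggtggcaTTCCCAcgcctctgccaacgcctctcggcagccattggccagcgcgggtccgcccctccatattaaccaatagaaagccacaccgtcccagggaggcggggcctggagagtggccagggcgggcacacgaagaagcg

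Equally long windows held TGGGAA in 17.3% of mesoderm peaks (180 bp) and 16.1% of HPC peaks (202 bp), and CACGCG in 3.3% of the mesoderm windows. In RefSeq promoter windows (GRCm38.p6, 250 bases before to 50 after the start), which were matched for 9 of the 10 genes, all but Hey1, TGGGAA was found in 1 gene, Hey2, with 2 sites. Of all 32851 windows, 25.6% held it. The 9 genes had 10 windows, since Dll1 had 2. CACGCG was found in 5 of the 10 windows (Notch2, Dll1, Dll4, Jag1 and Jag2) against 9.27% of all windows, and CCCTC in 8 of the 10 against 66%. The windows compared were not matched for G and C content, so these shares do not show an excess of a site. None of the 9 held the E-box CACGTG (7.15% of all windows) or the GATA site AGATAA (11.2%). CACGTG and CACGCG can share letters, and no window of the 9 genes held both.

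**Figure D3:**
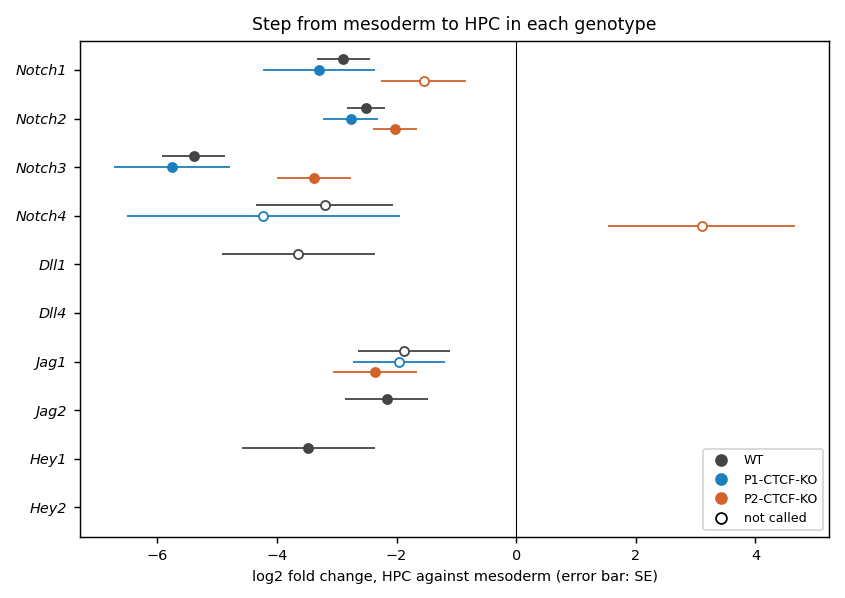
Log2 fold change from mesoderm to HPCs for each gene that passed the filter, in wild-type (grey), P1-CTCF-KO (blue) and P2-CTCF-KO (orange) cells, with bars of 1 SE and open symbols where the test was not passed. Notch2 and Notch3 are called lower in all 3 genotypes, and Notch4 in P2-CTCF-KO cells is the 1 value above 0, at 3.10.

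Against undifferentiated mESCs, 2 of 8 genes tested were called in wild-type mesoderm, Hey1 higher and Jag2 lower, where 10.8% of all genes were called higher and 13.6% lower. In wild-type HPCs, 6 of 8 genes were called lower (Notch1, Notch2, Notch3, Dll1, Jag1 and Jag2), where 25% of all genes were. A gene that passed the filter through its level in undifferentiated mESCs alone had to be lower here as well. With the scaling by counts outside ribosomal and multi-locus entries, 60.3% of all genes were called lower and 6.97% higher in this comparison, and 7 members lower, Notch4 added. The largest of these falls were those of Notch3 (log2 fold change -4.85 ± 0.54, adjusted p = 4.5e-05) and Jag2 (-4.47 ± 0.56, adjusted p = 9.5e-05). Dll1, at 78 and 50 counts in undifferentiated mESCs against 1 count over all 4 wild-type HPC libraries, had a log2 fold change of -4.09 ± 1.10 (adjusted p = 0.0096). The call of Jag1 (-2.25 ± 0.76, adjusted p = 0.029) did not hold without either undifferentiated library or without HPC B9.3-2 or C6.1 (adjusted p = 0.054 to 0.13), and Notch4 passed the test without HPC B9.3-2 (adjusted p = 0.043).

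The direction of the receptors between undifferentiated mESCs and mesoderm depended on the scaling. Under TMM, Notch1, Notch2 and Notch3 were 0.86 ± 0.47, 0.89 ± 0.37 and 0.54 ± 0.44 higher in mesoderm on the log2 scale, none past the test. Without B9.3, Notch2 passed it (1.21 ± 0.30, adjusted p = 0.014) and Notch4 went from 0.50 ± 0.88 to -2.01 ± 0.78. Scaled by the counts outside ribosomal and multi-locus entries alone, which moves the median of all genes to -1.83, they were at -0.70, -0.90 and -1.17, still above that median by 1.13, 0.93 and 0.66. Jag2 was below the median of all genes under both scalings, by 2.12 under TMM and 2.09 under the other.

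The genotype comparisons ask whether losing a Runx1 CTCF site moves these genes at a given stage. In mesoderm, 7 of the 10 genes passed the filter, and Dll1, Dll4 and Hey2 did not. None of the 7 was called between P1-CTCF-KO and wild type (0% of all 8778 genes called), between P2-CTCF-KO and wild type (0.0342%) or between P2-CTCF-KO and P1-CTCF-KO (0%). By edgeR's quasi-likelihood test at an unadjusted p under 0.05 the counts were 0, 1 and 0, and DESeq2 called 0 in each. The log2 fold changes ran from -0.64 to 0.72 for P1-CTCF-KO against wild type.

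The 1 gene with an unadjusted p under 0.05 was Notch4, lower in P2-CTCF-KO than in wild-type mesoderm (log2 fold change -3.50 ± 1.42, adjusted p = 0.27). Without wild-type B9.3, the library with 68 of the 75 Notch4 reads of its group, the value was -0.97 ± 1.42 (adjusted p = 0.86). Notch4 was called here with the scaling by counts outside ribosomal and multi-locus entries (-3.87 ± 1.01, adjusted p = 0.031) and, as was Dll1, with no filter on low counts (-3.52 ± 0.94, adjusted p = 0.033). The endothelial sums of the P2-CTCF-KO libraries were 1.97 to 3.93 CPM, and those of wild type 7.41 to 115. Notch1, Notch2 and Notch3 differed by -0.46 ± 0.52, -0.03 ± 0.28 and 0.25 ± 0.39. For Notch2, whose SE is the smallest, the P2-CTCF-KO libraries at 21.6, 20.0 and 27.5 CPM lay within the wild-type range of 13.02 to 30.4.

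In HPCs only Notch1 and Notch2 passed the filter, and neither was called in any of the 3 genotype comparisons, where 0% of 7422 genes was called in each (0 at an unadjusted p under 0.05 and 0 in DESeq2 for these genes). Notch1 was 0.89 ± 0.82 higher in P2-CTCF-KO than in wild-type HPCs on the log2 scale, and -0.37 ± 0.64 without D2.1. Notch2 was at 0.48 ± 0.42, and at -0.11 ± 0.26 without D2.1. The sign of both therefore rested on that library.

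The step from mesoderm to HPCs was called lower for 3 of 5 genes tested in P1-CTCF-KO cells (Notch1, Notch2 and Notch3), where 16.1% of all genes were, and for 3 of 5 in P2-CTCF-KO cells (Notch2, Notch3 and Jag1), where 11.7% were. Notch3 and Jag1 passed the filter here but not among HPC libraries alone. As in wild-type cells, a gene that passes through its mesoderm level alone had to be lower in HPCs. These counts therefore describe the genes and support nothing further. Against wild type, the step differed for none of the 5 genes in P1-CTCF-KO cells (0% of 9170 genes called) and for none in P2-CTCF-KO cells (0.0218%). By edgeR's quasi-likelihood test 0 and 1 of the 5 had an unadjusted p under 0.05, and DESeq2 called 0 in both. The 1 gene was Notch4, whose step was 6.21 ± 2.15 higher in P2-CTCF-KO than in wild-type cells (adjusted p = 0.44). That difference was 4.14 ± 2.04 without P2-CTCF-KO HPC D2.1 and 3.69 ± 2.40 without wild-type mesoderm B9.3 (adjusted p = 0.81 and 1).

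Further genes of the pathway were read from a list of 50, which holds modifiers, proteases, ubiquitin ligases, nuclear partners and targets. Between wild-type mesoderm and HPCs, 40 of them passed the filter, 2 rose and 8 fell, where 10.8% of all genes were called higher and 12.5% lower, and their median log2 fold change was -0.38 against -0.01 for all genes. Kat2b, a histone acetyltransferase and coactivator, rose (2.61 ± 0.24, adjusted p = 2.9e-05). Efnb2, the arterial ephrin, Furin, which cuts the receptor precursor, and Ccnd1, a cyclin, fell (-2.97 ± 0.33, -1.97 ± 0.24 and -4.20 ± 0.59). The other called gene that rose, named after its value was seen, was Adam10, the protease that cuts ligand-bound receptors (2.14 ± 0.31, adjusted p = 0.00047).

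In P1-CTCF-KO cells 3 of 31 list genes tested rose and 6 fell over that step, where 16.6% of all genes were called higher and 16.1% lower. In P2-CTCF-KO cells 3 rose and 7 fell, where 16.5% and 11.7% of all genes did. Adam10 rose in both (2.69 ± 0.36 and 3.23 ± 0.36, adjusted p = 2.1e-05 and 3.3e-06), as did Kat2b (2.75 ± 0.41 and 2.34 ± 0.41). Hes1, a direct target and repressor, fell in P2-CTCF-KO cells (-4.35 ± 0.68, adjusted p = 9.6e-05). Dll3, a ligand-like inhibitor, fell there too (-5.58 ± 1.03, adjusted p = 0.00037).

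From undifferentiated mESCs to wild-type mesoderm, 10 of 40 list genes rose and 5 fell, where 10.8% of all genes were called higher and 13.6% lower, with a median of -0.04 against -0.18 for all genes. Maml3, a coactivator of the Notch complex, and Gata2, a hematopoietic transcription factor and target, rose (5.30 ± 0.62 and 3.46 ± 0.42, adjusted p = 0.00022 and 0.00027), and Rbpj itself fell (-1.60 ± 0.22, adjusted p = 0.00053). Furin rose and Kat2b fell (2.48 ± 0.28 and -2.22 ± 0.25), each opposite in sign to its step from mesoderm to HPCs. Between wild-type HPCs and undifferentiated mESCs 7 of 40 rose and 14 fell, where 17% and 25% of all genes did. No gene of the list was called in any of the 6 genotype comparisons within a stage or in either comparison of steps by edgeR's quasi-likelihood test, among 32 tested in mesoderm, 22 in HPCs and 31 for the steps. At an unadjusted p under 0.05 there were 7 for P2-CTCF-KO against wild-type mesoderm, 4 for the difference of its step from that of wild type and 0 in each comparison of P1-CTCF-KO with wild type, and DESeq2 called 1 in the first of these and 0 in the others. The P2-CTCF-KO to P1-CTCF-KO comparisons had 4 in mesoderm and 2 in HPCs, P2-CTCF-KO against wild-type HPCs had 1, and DESeq2 called 0 in each.

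Genes whose pattern was most like that of a member were read over 21 libraries from log2(CPM + 1) after taking out the mean of each stage, among 9170 genes. Notch4 was closest to Mmrn2, Cd93 and Pcdh12 (Pearson r = 0.96, 0.96 and 0.95), all known as endothelial genes. Notch1 was closest to Rell1, Nhsl1 and Rasgrp3 (0.92, 0.90 and 0.88). Notch2 was closest to Epb41l3, Ptk7 and Etl4 (0.87, 0.86 and 0.84), and Notch3 to Chst15, Epb41l3 and Hspa12a (0.87, 0.85 and 0.84), so Epb41l3 was among the closest of both. Jag1 was closest to Alcam, Xiap and Maged2 (0.82, 0.81 and 0.80). Between the members, r was 0.83 for Notch1 and Notch4, 0.73 for Notch2 and Notch3, and 0.18 for Notch2 and Notch4. These libraries share clones and include the 3 endothelial-rich ones, so each r is given as a description. With a pseudocount of 0.1 in place of 1, only 5 of these 15 places were held by the same genes. None of those named for Notch4 stayed, and its closest genes were then Ppp1r16b, Ldb2 and Tjp1.

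Wild-type ATAC-seq peaks were deposited as 1 merged list per stage, with 76766 peaks in mesoderm and 29037 in HPCs, so they carry no replicate error. The cells are named as a line with a Runx1 enhancer transgene in the study's methods and as E14-TG2a in the labels. In mesoderm, 8 of the 10 genes had a peak within 500 bp of their start, all but Dll1 and Jag2, against 51.8% of 24961 genes. In HPCs 6 did (Notch2, Notch4, Dll4, Jag1, Hey1 and Hey2), against 34.7% of all genes. Notch1 and Notch3, which fell between the stages, had a mesoderm peak at their start, of 92 and 147 bp, and no HPC peak as far as 5 kb beyond their ends. Notch2 and Hey1, which were called lower too, had a peak within 500 bp of their start in both lists. Jag2, also called lower, had none there in either list. Notch1 alone had 7 mesoderm peaks, 3 of them in introns.

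Dll4 and Hey2, by contrast, had a start site peak in the HPC list at 2 and 0 counts of RNA over the 4 wild-type HPC libraries. Within 5 kb of their spans the 10 genes held 35 mesoderm and 11 HPC peaks. The HPC list was merged from 2 libraries and that of mesoderm from 4, and no depth is given for either, so a peak missing from the HPC list does not show that the site was closed.

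CTCF peaks of 416B cells lay within 5 kb of 6 of the 10 genes (Notch2, Notch3, Notch4, Dll4, Jag2 and Hey1), against 58.8% of all genes, and at the start of none, against 9.11%. There were 11 such peaks, 4 of them in Notch3. Those at 23618 bp into Notch3 and beyond the 3' end of Dll4 overlapped a mesoderm ATAC-seq peak, and that in the last part of Hey1 overlapped an HPC peak. CTCF was not mapped here in mesoderm or HPCs.

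**Figure D4:**
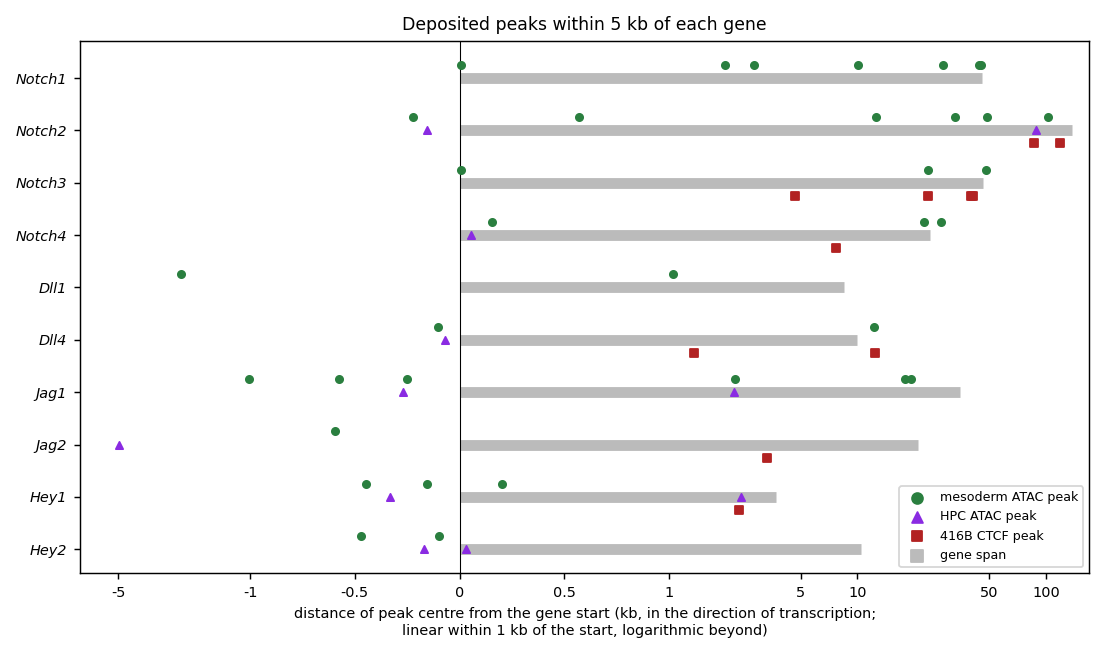
Centres of the deposited peaks relative to the start of each gene (horizontal axis in kb along the direction of transcription, linear within 1 kb and logarithmic beyond). Circles are mesoderm ATAC-seq peaks, triangles HPC ATAC-seq peaks, squares 416B CTCF peaks and grey bars the gene spans. Notch1, Notch3 and Dll1 have no HPC peak, and no CTCF peak lies within 500 bp of a start.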

How the data were processed

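The table deposited by the authors held raw read counts per gene over exons and introns for 23 poly(A)-minus libraries. Per the study's methods, reads were aligned to mm9 with STAR, duplicates removed with picard and counts made with featureCounts. The annotation and strand setting are not given in the sources used here. The deposited peak lists of ATAC-seq and CTCF ChIP-seq gave positions only. Tiled-C, bisulfite and signal files were not used here. No count column was left unassigned (0).

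Counts were analysed with edgeR 4.0.16 in R 4.3.3 (quasi-likelihood test, TMM, filterByExpr at a minimum count of 10), with DESeq2 1.42.0 as an alternative. Fits held the wild-type stages (9 libraries), the genotypes in mesoderm (9) or HPCs (12), or both stages of all genotypes (21, for the knockout steps and their differences). P-values were adjusted by Benjamini-Hochberg over all genes tested, and SE is the log2 fold change over the square root of its F statistic. Of 25146 genes, 5413 had no counts. Repeat libraries of a clone entered singly and, as an alternative, summed, so p-values measure the spread between libraries. Within groups, all 29 library pairs differed by more than sampling noise (chi-square per gene 2.53 to 35.1). Scripts were tested on simulated data.

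The labels give mesoderm and HPC libraries the same clones. The deviations of the 9 clones from their group means correlated across stages at r of -0.07 to 0.18, and the pairing comes from the clone names. The fit with the clone as a replicate block is an alternative. The other alternatives were no filter on low counts, removal of ribosomal and multi-locus entries, all 23 libraries in 1 fit and leaving out each library. Removal of 3 endothelial-rich libraries and scaling by the counts outside ribosomal and multi-locus entries (186 entries spanning over 2.5 Mb among them) were chosen after seeing the data.

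The 10 genes and the pathway and marker lists were chosen with earlier results of these data known. All 10 are described, with the 3 genes most alike to each gene past the filter, and at most 5 called pathway genes per comparison, those of smallest adjusted p. Of these, 1 gene is not reported here. Motifs were counted in peak sequence from NCBIM37, whose annotation overlapped 99.8% of 19942 genes of the table, and in RefSeq promoters.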

Additional observations from a re-analysis of the deposited data

Results flagged for a closer look

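In groups of 4 or 5 HPC libraries, 18 sets of values were tested for 1 library far from the rest, and 7 were marked. The rule marks about 1 in 20 by chance for normally distributed values, which low counts with zeros need not follow. The 7 marks are therefore not read as an excess. Of the 7, 5 belong to a single library, P2-CTCF-KO HPC D2.1, at 8.86 CPM of Notch1, 12.5 CPM of Notch2, 4.46 CPM of Notch3, 4.53 CPM of Notch4 and 0.558 CPM of Hey1. The same library had 91.8 CPM over 12 endothelial markers, the most of all HPC libraries, and 25.9 CPM over 5 erythroid genes, the least. Its repeat D2.1-2 had 13.9 and 160.2 CPM over the same lists. D2.1 was also highest of its group over arterial (37.1 CPM), venous (25.9 CPM), mesoderm (20.2 CPM), neural (3.91 CPM) and pluripotency genes (2.02 CPM). Their part in the receptor levels was not tested.

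The other 2 rest on 1 or 2 reads. Wild-type HPC B9.3 had 1 read of Dll1 (0.0859 CPM) and wild-type HPC C8.1 had 2 reads of Hey1 (0.167 CPM), where the other wild-type HPC libraries had 0. A set with reads in only 1 library is always marked by this rule.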

How the results depend on the processing

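Counts of the 10 genes called moved with the setting. Between wild-type mesoderm and undifferentiated mESCs (2 called), the count was 1 with DESeq2, without ribosomal and multi-locus entries or with the libraries of a clone summed, 4 with no filter on low counts, and 0 to 2 leaving out each library. Between wild-type HPCs and mesoderm (5), it was 9 with no filter, 3 with the added scaling or clones summed, 8 with the clone as a block and 3 to 5 leaving out each library. For wild-type HPCs against undifferentiated mESCs (6) it was 5 to 6 leaving out each library. For P2-CTCF-KO against wild-type mesoderm (0) it was 2 with no filter (Notch4 and Dll1) and 1 with the added scaling (Notch4), and against P1-CTCF-KO mesoderm (0) it was 1 with no filter (Dll1). The P1-CTCF-KO step (3) gave 6 with no filter, 5 in 1 fit of all libraries or with clones summed, and 3 to 5 leaving out each library. The P2-CTCF-KO step (3) gave 3 to 4. Leaving out a library removes samples, and otherwise the cause was not tested. The shares of all genes called with the clone as a block or with clones summed are not given here, so those counts only describe the genes.

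Over all genes, the added scaling called 352 higher and 8543 lower between wild-type mesoderm and undifferentiated mESCs, against 1389 and 1757, and 799 and 6918 between wild-type HPCs and undifferentiated mESCs, against 2187 and 3222. Between wild-type HPCs and mesoderm it called 1961 and 965, against 1389 and 1618. For P2-CTCF-KO mesoderm it called 199 genes against wild type and 138 against P1-CTCF-KO, against 3 and 0, and no filter called 431 and 267. It put the median of all genes at 0.37, -0.42 and 0.58 (log2) for the steps in wild-type cells, in P1-CTCF-KO and in P2-CTCF-KO. In the P2-CTCF-KO step it lost Jag1 (adjusted p = 0.056).

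Signs turned for Notch1, Notch2, Notch3 and Notch4 in wild-type mesoderm against undifferentiated mESCs with the added scaling (-0.70, -0.90, -1.17 and -1.02). Leaving out each library, Notch4 ran from -2.01 to 1.02 and Dll1 from -1.59 to 0.062 there, and in P2-CTCF-KO against wild-type HPCs Notch1 ran from -0.37 to 1.18 and Notch2 from -0.11 to 0.63. Without the 3 endothelial-rich libraries the last pair was at -0.37 and -0.11. With HPC peaks wider than their median only, 3 of the 10 genes had one near the start and 3 in the span. The clone as a block changed no call besides those of Notch4, Dll1 and Jag1 in wild-type cells. Depth limits Dll1, Dll4, Hey1 and Hey2 most, with 69 to 230 reads each over all libraries.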
